A study of Mus musculus with 10 samples.

Results

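VEGF and angiopoietin signaling was described in whole mouse hearts through 10 genes that were listed by name, out of 56748 gene identifiers in the count tables and 15454 genes with enough reads to be tested. The genes were the ligands Vegfa, Vegfb, Angpt1 and Angpt2, the receptors Flt1, Kdr, Tek and Tie1, the co-receptor Eng and the adhesion molecule Esam. All 10 were found by Ensembl identifier and all 10 passed the filter on low counts, with at least 197 reads on each of them in every heart. RNA came from whole hearts, atria and ventricles together, of 5 wild-type C57BL/6 mice of the Exercise group and 5 wild-type C57BL/6 mice of the Sedentary group (labelled Control), 1 library per mouse. All were 8 weeks old when purchased. The Exercise mice ran on a treadmill at 15 m/min for 120 min a day on 5 days a week over 8 weeks, after a week of getting used to the belt, and the controls did not train. The genotype of every mouse is given as WT, and the hearts are called training and sedentary hearts from here on.

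VEGF-A is secreted by cardiomyocytes and other cells and drives capillary growth through KDR, the main signaling receptor of the endothelium. FLT1 binds VEGF-A tightly but signals weakly and thereby limits how much ligand reaches KDR, while FLT1 is the only receptor tyrosine kinase that binds VEGF-B. Angiopoietin 1 comes from perivascular and other stromal cells and stabilizes vessels through the receptor TEK (also called TIE2). Angiopoietin 2 is released by endothelium and can oppose angiopoietin 1, and TIE1 is a partner of TEK. Endoglin (Eng) is a co-receptor for ligands of the TGF-β and BMP family on endothelium, and ESAM holds endothelial cells together at their junctions.

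Vegfa, Flt1, Tie1 and Esam were lower in training hearts, and none of the 10 genes was higher, where 2.75% of all tested genes were. That is 4 of 10 members at a false discovery rate (FDR) below 0.1, the threshold of the study, against 7.01% of all tested genes in either direction and 4.26% in the lower direction. Values are in CPM, which are reads on a gene scaled to the reads on all genes with a correction for library composition. The changes were small, from a fall of 19.4% in Vegfa to one of 10.4% in Tie1. The log2 fold changes of the 10 genes, always training against sedentary, had a median of −0.10, with 3 above 0 and 7 below, beside a median of 0.00026 over all tested genes. In Vegfa, Tie1 and Esam no training heart overlapped any sedentary heart, 3 of 10 members, against 5.06% of all tested genes. The members were chosen with earlier results of these data known. The shares of all genes are therefore given as a description and not as a test of the list.

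The 4 lower genes are shown by the 250 bases before their annotated start, since they are the members that passed. Capitals mark the letters of a GC box (GGGCGG, or CCGCCC on the other strand) and of the hypoxia response core (ACGTG, or CACGT on the other strand). The sequences were read from GRCm39 at the canonical GENCODE M39 start, 5′ to 3′ on the strand of the gene.
Vegfa (chr17:46343310-46343559, minus strand): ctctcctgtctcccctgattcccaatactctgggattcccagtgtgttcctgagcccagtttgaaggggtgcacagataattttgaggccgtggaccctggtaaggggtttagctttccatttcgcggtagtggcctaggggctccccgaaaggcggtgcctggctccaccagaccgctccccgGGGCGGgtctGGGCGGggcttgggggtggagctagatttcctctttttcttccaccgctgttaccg
Flt1 (chr5:147662822-147663071, minus strand): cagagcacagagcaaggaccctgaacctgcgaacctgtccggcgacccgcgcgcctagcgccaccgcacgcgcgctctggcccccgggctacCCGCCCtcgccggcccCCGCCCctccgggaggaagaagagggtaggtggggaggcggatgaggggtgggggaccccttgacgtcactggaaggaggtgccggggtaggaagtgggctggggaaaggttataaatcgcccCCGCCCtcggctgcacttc
Tie1 (chr4:118347259-118347508, minus strand): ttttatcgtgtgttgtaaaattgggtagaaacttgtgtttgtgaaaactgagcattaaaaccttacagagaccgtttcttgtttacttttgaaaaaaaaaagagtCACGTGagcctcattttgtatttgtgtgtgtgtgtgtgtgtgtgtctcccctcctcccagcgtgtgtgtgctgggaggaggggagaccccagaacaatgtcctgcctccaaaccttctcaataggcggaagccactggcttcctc
Esam (chr9:37439094-37439343, plus strand): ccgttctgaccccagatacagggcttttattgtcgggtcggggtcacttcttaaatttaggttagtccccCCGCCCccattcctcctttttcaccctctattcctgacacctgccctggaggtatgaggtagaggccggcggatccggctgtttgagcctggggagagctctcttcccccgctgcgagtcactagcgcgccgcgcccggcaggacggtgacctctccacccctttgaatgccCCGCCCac
GC boxes were found in the windows of Vegfa, with 2, Flt1, with 3, and Esam, with 2, and 48.3% of 13562 windows of tested protein-coding genes held at least 1. The hypoxia response core was found in the window of Tie1 alone among these 4, where it lies in the palindrome CACGTG and is therefore read on both strands, and 20.6% of all windows held it. CACGTG, the E-box bound by clock proteins, was in 7.67% of all windows. The letters CCGGAA, which many ETS factors bind, were in none of the 4 windows and in 16.9% of all windows. TATAAA was in the window of Flt1 among the 4 and in 7.38% of all. These are matches of letters and not measured binding sites. Bases outside these windows of 250 were not searched, so an element farther from a start would be missed. Among the members that did not pass, the window of Vegfb held the hypoxia response core as well, and also CACGTG. GC boxes were found in the windows of Vegfb, with 4, Kdr, with 2, and Angpt2, with 1. CCGGAA was in the window of Kdr and TATAAA in that of Angpt1.

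Vegfa (ENSMUSG00000023951, chromosome 17 of GRCm39, 46327919 to 46343309, minus strand) is the founding ligand of the family. It was at 262, 288, 261, 285 and 274 CPM in training hearts 1 to 5 and at 298, 331, 347, 349 and 374 CPM in sedentary hearts 1 to 5. Every training heart lay below every sedentary heart, and the closest pair was training heart 2 and sedentary heart 1. The means were 274 ± 12.7 CPM (SD, n = 5) and 340 ± 27.8 CPM (SD, n = 5). The log2 fold change was −0.31 (95% confidence interval −0.43 to −0.19, SE 0.056). The adjusted p was 0.0158 in the quasi-likelihood F test of edgeR, after Benjamini-Hochberg adjustment over all tested genes. Leaving out any 1 of the 10 hearts kept the call, with log2 fold changes between −0.36 and −0.28. Cardiomyocytes, a main source of Vegfa, were present in quantity, since 8 of their marker genes summed to 71820 to 76360 CPM in training hearts and to 74500 to 84690 CPM in sedentary hearts. All 8 lay below 0 in log2 fold change (median −0.10), Actc1 alone passed among them, and their part in the fall of Vegfa was not tested.

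**Figure D1:**
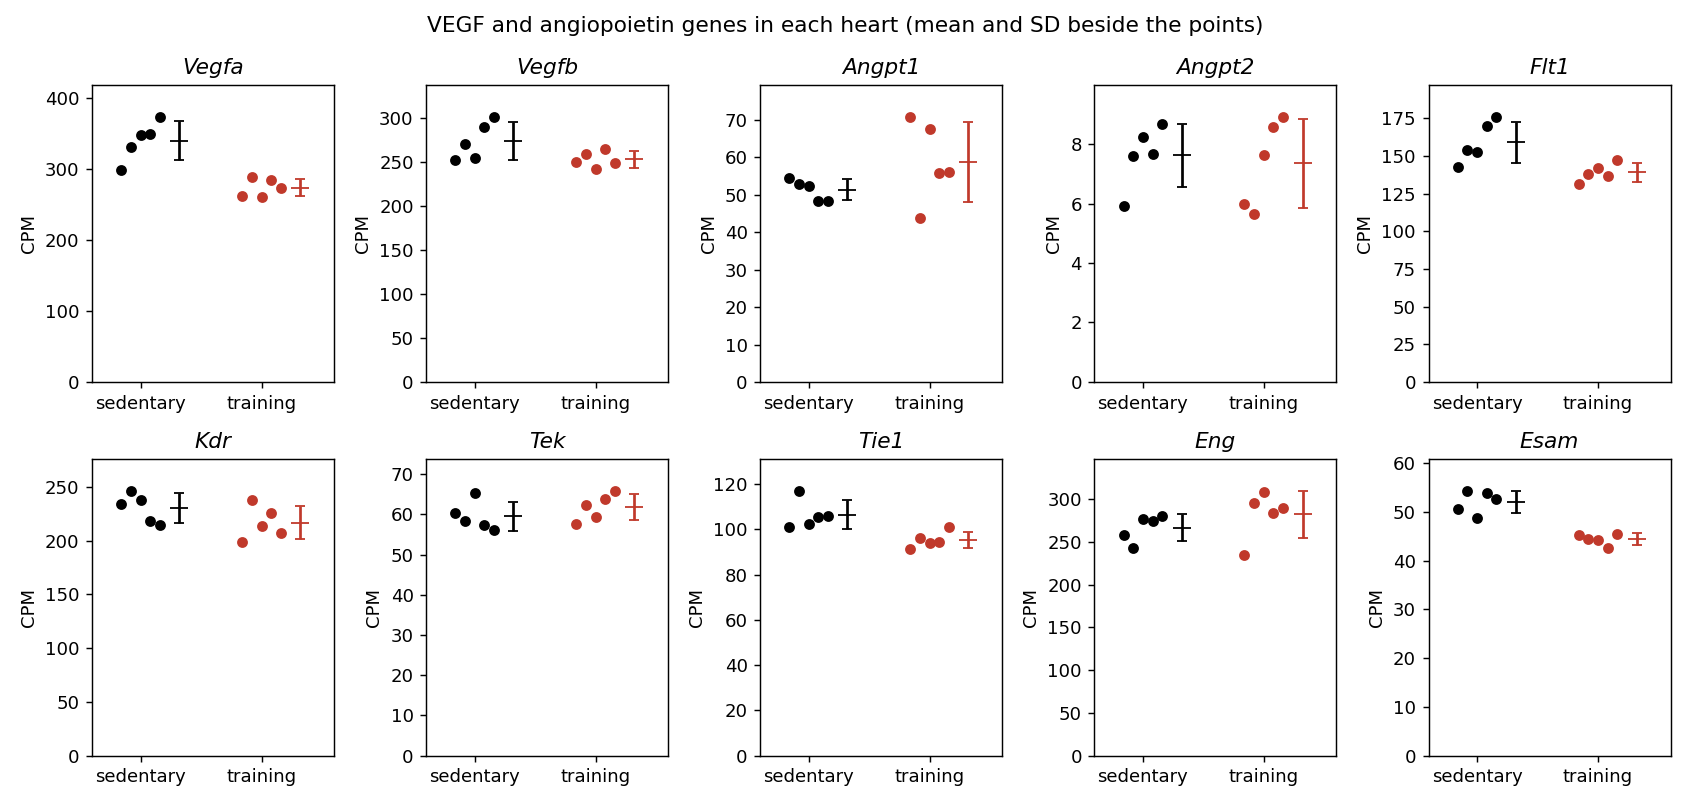
CPM of the 10 genes (vertical axes, from 0) in sedentary hearts (black) and training hearts (red), 1 point per heart in the order of the mouse numbers, with the mean and SD beside the points. Vegfa, Tie1 and Esam show no overlap between the groups, whereas Angpt1 spreads from 43.9 to 70.9 CPM among the training hearts.

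Vegfb (ENSMUSG00000024962, chromosome 19, 6958447 to 6965127, minus strand), the ligand tied to fatty acid handling in heart endothelium, was at 250, 259, 242, 265 and 248 CPM in the training hearts and at 252, 271, 255, 290 and 302 CPM in the sedentary hearts. The groups overlapped, with 3 training hearts below all sedentary hearts. Its log2 fold change was −0.11 (95% confidence interval −0.23 to 0.00, edgeR adjusted p = 0.251), which did not pass. The ratio of Vegfa to Vegfb reads was between 1.05 and 1.11 in training hearts and between 1.18 and 1.36 in sedentary hearts. The ratio needs no correction for library size, and its log2 difference was −0.20. The exact two-sided permutation test gave p = 0.00794, the smallest p that 5 against 5 hearts allow, and 0.0318 after Benjamini-Hochberg adjustment over the 4 ratios compared.

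Angpt1 (ENSMUSG00000022309, chromosome 15, 42288058 to 42540417, minus strand), the TEK agonist, was at 70.9, 43.9, 67.5, 55.8 and 56.2 CPM in training hearts 1 to 5 and between 48.4 and 54.6 CPM in the sedentary hearts. Training heart 2 was below all sedentary hearts and the other 4 training hearts were above all of them. The log2 fold change was 0.20 (95% confidence interval −0.02 to 0.41, edgeR adjusted p = 0.297). Without training heart 2 the log2 fold change was 0.29 and passed (edgeR adjusted p = 0.0527), so 1 heart decided this call. Angpt2 (ENSMUSG00000031465, chromosome 8, 18739202 to 18791603, minus strand), the context-dependent antagonist, overlaps Mcph1 on the opposite strand and was scarce. It ranged from 5.64 to 8.92 CPM in training hearts and from 5.91 to 8.69 CPM in sedentary hearts. Its log2 fold change was −0.05 (95% confidence interval −0.34 to 0.24, edgeR adjusted p = 0.868), and the sign of this value turned in 5 of 20 alternative settings. The ratio of Angpt2 to Angpt1 reads was 0.128 ± 0.031 (SD, n = 5) in training hearts and 0.149 ± 0.026 (SD, n = 5) in sedentary hearts, a log2 difference of −0.24 (exact two-sided permutation test, p = 0.294, adjusted p = 0.341 over the 4 ratios). The spread between hearts was larger than this difference.

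Flt1 (ENSMUSG00000029648, chromosome 5, 147498414 to 147662826, minus strand), which encodes VEGFR1, was at 131, 138, 142, 137 and 147 CPM in the training hearts and at 143, 154, 153, 170 and 176 CPM in the sedentary hearts. The groups overlapped only in that training heart 5 lay above sedentary heart 1. The log2 fold change was −0.19 (95% confidence interval −0.32 to −0.07, SE 0.056, edgeR adjusted p = 0.0747). The call was held in 2 of the 10 fits without 1 heart, those without training heart 5 or sedentary heart 1. Without any other heart it was lost, with an edgeR adjusted p up to 0.159 and log2 fold changes from −0.21 to −0.16. In the fits without 1 heart the calls over all genes lay between 512 and 1490, beside 1084 with all hearts. Kdr (ENSMUSG00000062960, chromosome 5, 76093487 to 76139884, minus strand), which encodes VEGFR2, ranged from 199 to 238 CPM in training hearts and from 214 to 247 CPM in sedentary hearts. The log2 fold change was −0.09 (95% confidence interval −0.21 to 0.03, edgeR adjusted p = 0.403). The 2 receptors were set against each other within each heart. The ratio of Kdr to Flt1 reads was 1.56 ± 0.126 in training and 1.46 ± 0.194 in sedentary hearts (SD, n = 5 each), a log2 difference of 0.10 (exact two-sided permutation test, p = 0.341). It was therefore not shown that one receptor changed more than the other.

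Tie1 (ENSMUSG00000033191, chromosome 4, 118328385 to 118347261, minus strand) was at 91.2, 96.3, 93.8, 94.3 and 101 CPM in training hearts and at 101, 117, 102, 106 and 106 CPM in sedentary hearts. No training heart reached the lowest sedentary heart, although training heart 5 at 100.8 CPM lay next to sedentary heart 1 at 101.0 CPM. The log2 fold change was −0.16 (95% confidence interval −0.26 to −0.06, SE 0.046, edgeR adjusted p = 0.0765). The call was held in 3 of the 10 fits without 1 heart, those that omitted training heart 2, training heart 5 or sedentary heart 1, and without any other heart it was lost with an edgeR adjusted p up to 0.157. Tek (ENSMUSG00000006386, chromosome 4, 94627291 to 94763224, plus strand) lay between 57.7 and 65.9 CPM in training and between 56.0 and 65.3 CPM in sedentary hearts. Training hearts differed by a log2 fold change of 0.06 (95% confidence interval −0.05 to 0.16, edgeR adjusted p = 0.602). The ratio of Tek to Tie1 reads was 0.648 ± 0.018 in training hearts and 0.562 ± 0.056 in sedentary hearts (SD, n = 5 each). It was higher than the sedentary mean in all 5 training hearts, while sedentary heart 3, at 0.639, lay among them. The log2 difference was 0.21 (exact two-sided permutation test, p = 0.0238, adjusted p = 0.0476 over the 4 ratios). Without training heart 2, 4 or 5 the exact p was 0.0556, with log2 differences between 0.20 and 0.21.

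**Figure D2:**
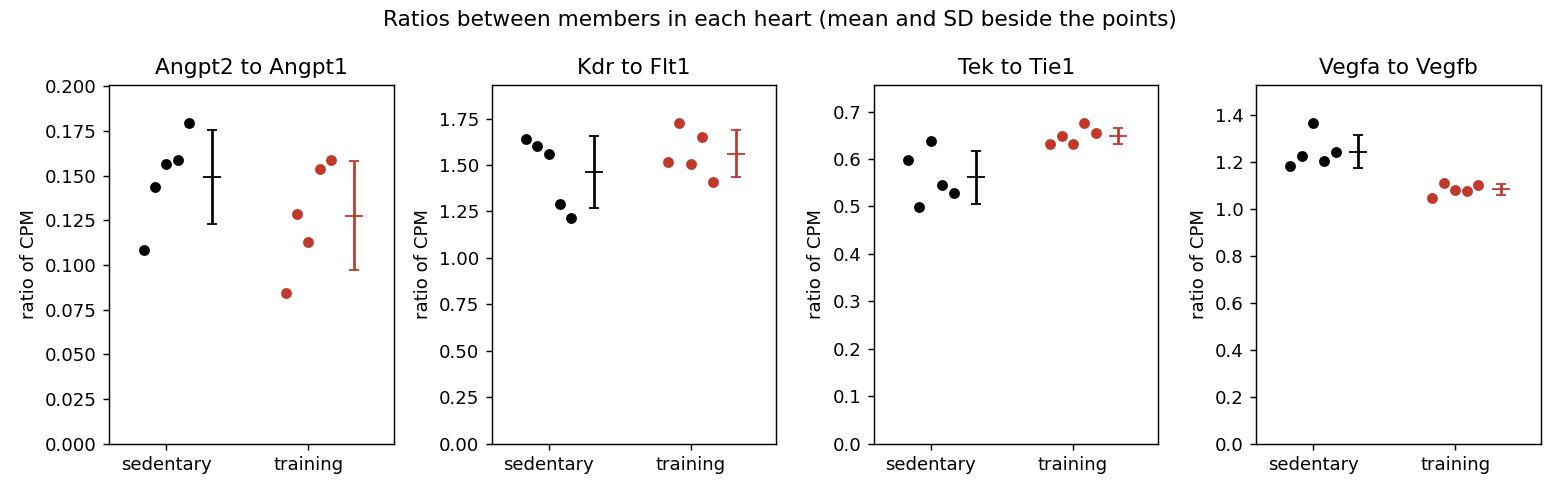
Ratios of reads in CPM between pairs of members (vertical axes, from 0) in sedentary hearts (black) and training hearts (red), 1 point per heart, with mean and SD. The ratio of Vegfa to Vegfb shows no overlap, from 1.05 to 1.11 against 1.18 to 1.36, and the ratio of Angpt2 to Angpt1 overlaps widely.

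Esam (ENSMUSG00000001946, chromosome 9, 37439344 to 37449615, plus strand) was at 45.3, 44.4, 44.1, 42.5 and 45.5 CPM in training hearts and at 50.7, 54.3, 48.7, 53.9 and 52.6 CPM in sedentary hearts. Every training heart was below every sedentary heart. The log2 fold change was −0.23 (95% confidence interval −0.32 to −0.14, SE 0.041, edgeR adjusted p = 0.0158), and the call held in each fit without 1 heart. Eng (ENSMUSG00000026814, chromosome 2, 32535543 to 32574661, plus strand) ranged from 235 to 308 CPM in training hearts and from 242 to 281 CPM in sedentary hearts. The groups differed by a log2 fold change of 0.08 (95% confidence interval −0.06 to 0.22, edgeR adjusted p = 0.538). Training heart 1 was the lowest of all 10 hearts for Eng and the other 4 training hearts were above all sedentary hearts.

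**Figure D3:**
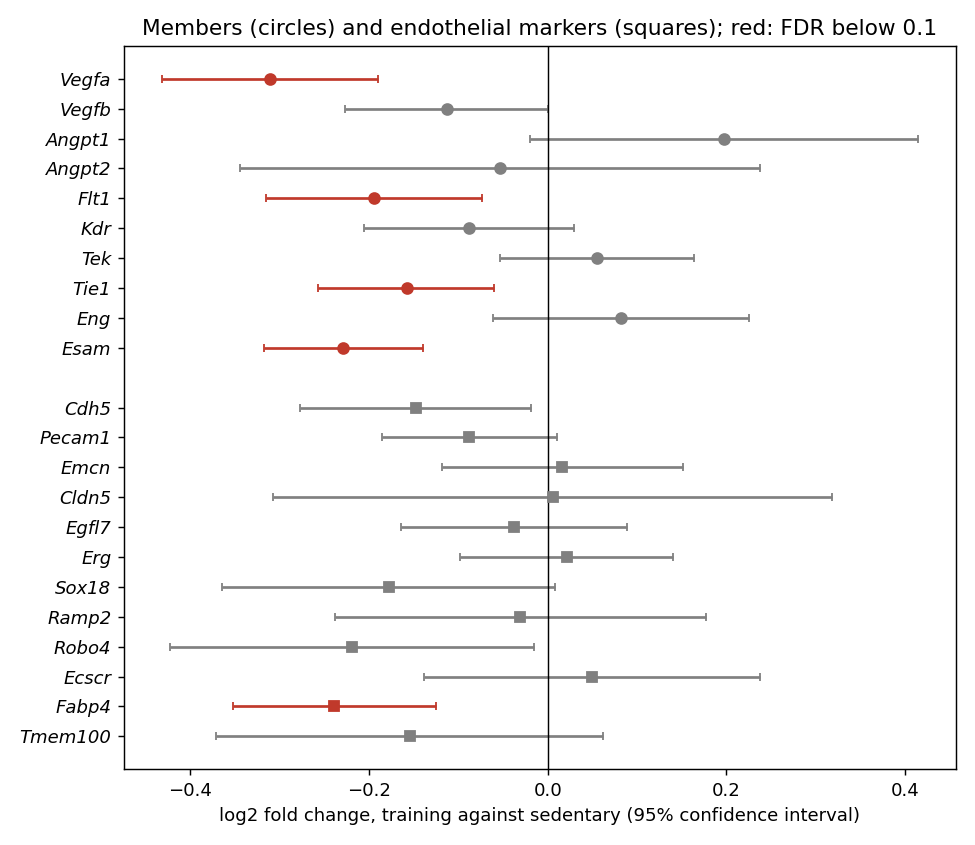
Log2 fold changes of training against sedentary hearts (horizontal axis) with 95% confidence intervals from edgeR for the 10 members (circles) and 12 endothelial marker genes (squares), red where the FDR is below 0.1. Vegfa at −0.31 lies farthest to the left, and Fabp4 at −0.24 is the one marker in red.

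Levels of different genes were compared per transcript length, in the unit TPM, which the authors computed with RSEM and which scales length-corrected transcript levels to a fixed total in each heart. Vegfb was the most abundant member, at 237 ± 10.6 TPM over the 10 hearts, followed by Vegfa at 162 ± 21.2, Eng at 95.8 ± 11.2 and Kdr at 38.9 ± 3.29 TPM (SD, n = 10). Each of these was above the next in all 10 hearts, and their ranges did not overlap. Esam, Tie1 and Flt1 followed at 28.9, 25.4 and 22.8 TPM, and the ranges of neighbours in this order overlapped. Tek at 14.5 TPM and Angpt1 at 13.4 TPM stood close, with Tek the higher in 8 of 10 hearts, and Angpt2 was lowest at 2.21 TPM. Vegfb thus exceeded Vegfa per length in every heart, although Vegfa had the larger CPM. TPM are not corrected for library composition, and the gaps between groups were narrower in TPM than in CPM for Flt1, Tie1 and Esam. Between groups, Vegfa fell from 180 ± 10.6 to 145 ± 12.0 TPM (SD, n = 5 each), with no overlap. Esam was at 30.2 ± 0.685 TPM in sedentary and 27.6 ± 1.33 TPM in training hearts, Flt1 at 23.7 ± 1.07 and 21.97 ± 1.77 TPM, and Tie1 at 25.9 ± 1.40 and 24.8 ± 1.75 TPM. In TPM the groups overlapped for each of these 3 genes.

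**Figure D4:**
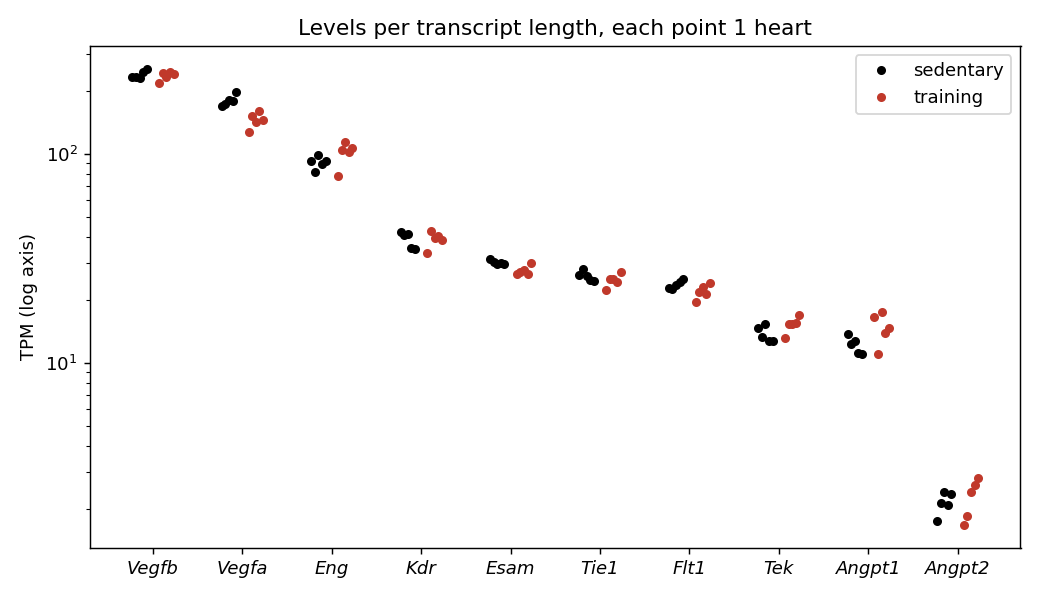
Level of each member in TPM (vertical log axis), ordered by the mean over hearts, with 1 point per sedentary heart (black) and per training heart (red). The members span from 1.68 TPM in the lowest heart for Angpt2 to 255 TPM in the highest for Vegfb.

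The tissue was checked against endothelial markers other than the members. All 12 were detected in every heart, with Pecam1 and Cdh5 among them. In whole-heart RNA, fewer cells of a type and less RNA per cell cannot be told apart. The summed level of the 12 markers was between 1020 and 1082 CPM in training hearts and between 1148 and 1193 CPM in sedentary hearts, with no overlap. Fabp4, a fatty acid binding protein of capillary endothelium and adipocytes, made up the largest part and was the 1 marker of 12 that passed, with a log2 fold change of −0.24 (edgeR adjusted p = 0.0305). Without Fabp4 the sums overlapped, at 641 to 699 CPM (median 662) against 688 to 738 CPM (median 709). All 5 training hearts still lay below the sedentary mean of this sum. Of the 12 markers, 8 lay below 0 in log2 fold change (median −0.06), and Cdh5, the endothelial cadherin, was at −0.15 (edgeR adjusted p = 0.19). With the mean log2 level of the 12 markers as a covariate in the edgeR fit, the log2 fold change was −0.36 for Vegfa, −0.21 for Esam, −0.18 for Tie1 and −0.11 for Flt1. None of the 10 members passed an FDR below 0.1 in that fit (edgeR), where the standard error of Vegfa rose from 0.056 to 0.099, and 5 of the 10 had an unadjusted p under 0.05. Over all 15454 genes the calls went from 1084 to 328 in the same fit.

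Atrial markers moved with the groups as well. The summed level of 7 atrial genes was between 5185 and 7792 CPM in training hearts and between 2865 and 6969 CPM in sedentary hearts, 3 of 7 passed as higher, and none was at 0 in any heart. With their score as a covariate the log2 fold change was −0.22 for Vegfa, −0.19 for Esam, −0.13 for Flt1 and −0.08 for Tie1, none of the 10 members passed in edgeR, and 2 had an unadjusted p under 0.05. Calls over all genes went from 1084 to 81 in that fit. The clock gene Bmal1 was at 5.67 to 8.67 CPM in training hearts and at 8.82 to 23.3 CPM in sedentary hearts, and 6 of 11 clock genes passed, 3 higher and 3 lower. The hour of heart collection is not given in the sources used here, and its part in the changes of the members was not tested.

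The other genes of the pathway were taken from 8 lists with 78 genes, of which 76 were tested. The lists, too, were chosen with earlier results of these data known. Of these, 2 were higher, 5 were lower and 69 did not pass, beside 7.01% of all tested genes called in either direction. They centred on a median log2 fold change of −0.006, and 37 lay above 0 and 39 below. Without a correction for library composition the calls split into 7 higher and 3 lower genes. The calls over all genes turned in the same setting, from 425 higher and 659 lower to 1029 and 339.

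No other VEGF ligand or receptor passed in edgeR among 6 (Vegfc, Vegfd, Pgf, Flt4, Nrp1 and Nrp2), where 1, Vegfc, had an unadjusted p under 0.05. DESeq2 called Vegfc as higher, and so did edgeR with library totals alone or without training heart 3. Vegfc, the lymphatic growth factor, was at 5.53 ± 0.631 CPM in training and 4.56 ± 0.415 CPM in sedentary hearts (SD, n = 5 each), and Pgf, a FLT1 ligand, at 5.26 ± 0.531 and 6.27 ± 1.33 CPM. Of 15 tested genes of VEGF receptor signaling, Gab1 rose. This docking protein, which links receptor tyrosine kinases to PI3K, was at 60.7 to 72.6 CPM in training and 49.7 to 59.6 CPM in sedentary hearts, with no overlap. Its log2 fold change was 0.23 (SE 0.057, edgeR adjusted p = 0.0448), and it lost its call without training heart 4 (edgeR adjusted p = 0.101). Nos3, the endothelial nitric oxide synthase, was at 40.3 and 37.1 CPM and did not pass.

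Among 8 genes around TEK and TIE1, Pik3r1 fell. This regulatory subunit of PI3K, which is used by many receptors besides, was at 170 to 224 CPM in training and 251 to 298 CPM in sedentary hearts. Its log2 fold change was −0.42 (SE 0.075, edgeR adjusted p = 0.0153), the call held in all 10 fits without 1 heart, and it was lost with the endothelial score as a covariate, where the value was −0.17. Ptprb, the phosphatase that restrains TEK, was at 169 ± 12.7 CPM in training and 186 ± 13.5 CPM in sedentary hearts (edgeR adjusted p = 0.216). Of 11 genes of endoglin and ALK1 signaling, Smad5, a transcription factor of the BMP branch, rose with a log2 fold change of 0.15 (SE 0.040, edgeR adjusted p = 0.0649). It passed in 3 of the 10 fits without 1 heart, and the other fits gave an edgeR adjusted p up to 0.15. The receptor Acvrl1 was at 33.5 and 32.8 CPM and Id1, a target of the branch, at 26.5 ± 3.36 and 31.0 ± 5.14 CPM, and neither passed. Of the 11 genes, 10 lay above 0 in log2 fold change and 1, Id1, lay below, where 50.1% of all tested genes lay above 0. Their median was 0.065, and several were near 0, such as Acvrl1 at 0.03. The largest value, 0.835, was that of Bmp10, which did not pass (edgeR adjusted p = 0.314) and is also among the 7 atrial markers. DESeq2 also called Smad4 and Smad6 as higher. Their edgeR log2 fold changes were 0.15 and 0.34 (edgeR adjusted p = 0.126 and 0.14).

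Of 10 genes of oxygen sensing and Vegfa regulation, 2 fell, both prolyl hydroxylases that mark HIF proteins for degradation. Egln3 was at 50.5 to 60.9 CPM in training and at 62.4 to 86.6 CPM in sedentary hearts, a log2 fold change of −0.34 (SE 0.084, edgeR adjusted p = 0.0429). It lost its call without training heart 4 (edgeR adjusted p = 0.107). Egln1 was at 471 ± 11.6 and 518 ± 21.7 CPM, a log2 fold change of −0.14 (edgeR adjusted p = 0.0814), and it passed in 2 of the 10 fits without 1 heart, and the other fits gave an edgeR adjusted p up to 0.173. Epas1, which encodes HIF-2α, was at 432 ± 17.7 and 482 ± 31.1 CPM with a log2 fold change of −0.16 (edgeR adjusted p = 0.103). It was outside the threshold there and was called by DESeq2, and by edgeR with either other filter on low counts, without training heart 5 and without sedentary heart 1. Hif1a was at 85.7 and 88.6 CPM. Ppargc1a, a coactivator that can induce Vegfa in muscle, was at 340 ± 81.6 and 417 ± 92.7 CPM and did not pass. Of 9 genes induced by hypoxia, 1 passed as lower in edgeR, Ddit4 (log2 fold change −0.90, SE 0.28, edgeR adjusted p = 0.0932), and it is induced by glucocorticoids and other stress too. Its groups overlapped, at 26.5 to 56.5 CPM against 31.6 to 109 CPM, it passed in 2 of the 10 fits without 1 heart, and the other fits gave an edgeR adjusted p up to 0.196, and it did not pass in RSEM expected counts. DESeq2 also called Ankrd37 and Bnip3 as lower, with edgeR log2 fold changes of −0.41 and −0.17. Slc2a1, Pdk1, Adm and Pfkfb3 lay above 0 in log2 fold change and did not pass.

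None of 9 angiogenesis inhibitors passed in edgeR, where 1 of them had an unadjusted p under 0.05, and DESeq2 called 1, Col18a1. So did edgeR with library totals alone, with no filter on low counts, without training heart 1 and without sedentary heart 5. Other edgeR settings called Dll4 (without sedentary heart 3) and Adamts1 (without sedentary heart 1 and with the mouse number as a block). Col18a1, the source of endostatin, was at 30.4 ± 3.68 CPM in training and 24.8 ± 3.62 CPM in sedentary hearts, with a log2 fold change of 0.29 (edgeR adjusted p = 0.132). Of 8 tested genes that VEGF induces or that mark sprouting tip cells, Pdgfb fell, the ligand by which endothelium recruits pericytes. It was at 36.2 to 40.8 CPM in training and 41.1 to 51.9 CPM in sedentary hearts, with no overlap and a log2 fold change of −0.22 (SE 0.064, edgeR adjusted p = 0.0771). It passed in 3 of the 10 fits without 1 heart, and the other fits gave an edgeR adjusted p up to 0.173. Esm1, a tip cell gene, was at 1.13 ± 0.162 and 0.778 ± 0.163 CPM with a log2 fold change of 0.53 (edgeR adjusted p = 0.121), and Apln was at 10.7 and 10.8 CPM. Esm1 was scarce, with 22 to 43 reads per heart. Rcan1 was at 117 ± 21.9 and 155 ± 29.9 CPM with a log2 fold change of −0.40 (edgeR adjusted p = 0.118). Of the 8 tested genes, 4 lay above 0 in log2 fold change and 4 below.

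**Figure D5:**
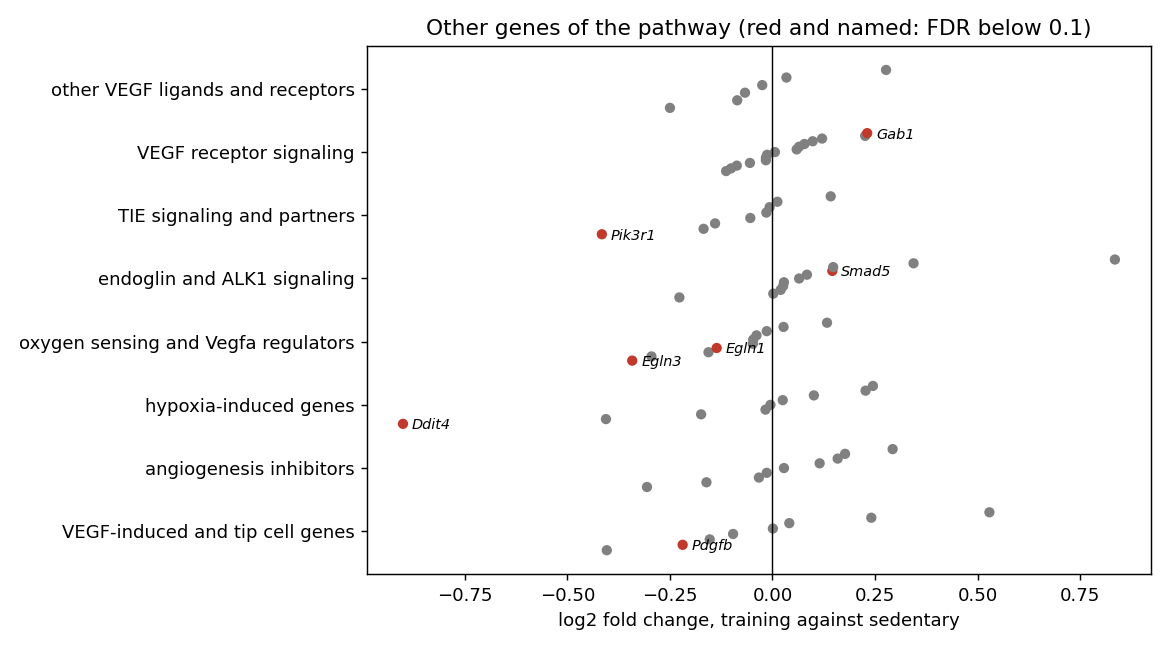
Log2 fold changes of training against sedentary hearts (horizontal axis) for the tested genes of the 8 pathway lists, 1 point per gene, red and named where the FDR is below 0.1. Both directions are present, with Gab1 and Smad5 to the right of 0 and 5 genes to the left.

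For each member that passed, the 3 genes averaging 10 CPM or more whose log2 CPM was most correlated with it over the 10 hearts were listed as a description, out of 8495 genes. Part of such a likeness is the difference between the groups, which these genes can share. For Esam they were Gpihbp1 (Pearson's r 0.955), which carries lipoprotein lipase on capillary endothelium, Rbp7 (0.946) and Cpt2 (0.94). For Vegfa they were Sars2 (0.985), Mlxipl (0.972) and Jmjd6 (0.972). For Flt1 they were Mast2 (0.974), Arhgap27 (0.964) and Wac (0.962), and for Tie1 Egln1 (0.948), Tepsin (0.942) and Fam204a (0.921).

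Gene counts summed to between 29461697 and 39431030 per library, fewer in training than in sedentary hearts (exact two-sided permutation test, p = 0.0238). Within a group, hearts varied beyond the noise of counting reads, so errors are those between hearts. The labels name each heart as a separate mouse. Vegfb, Angpt1, Angpt2, Kdr and Eng overlap genes on the opposite strand, and counting both strands together gave the same 4 called members.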

How the data were processed

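Whole hearts of 5 training and 5 sedentary mice were sequenced as directional RNA libraries. The authors aligned to GRCm39 using STAR 2.7.10a, and its raw gene counts, given for each strand, were deposited. The authors also deposited expected counts and TPM per gene from RSEM 1.3.3, whose strand setting is not given in the sources used here, together with RSEM's transcript lengths in bases. Reverse-strand counts were used, a median of 95.4% of stranded counts. Summary lines without a gene were dropped; multimapping reads were at most 19.2% and reads on no gene at most 4.89%. Depth lay between 29461697 and 39431030 counts per heart. Symbols and positions came from GENCODE M39, which matched 56017 of 56748 identifiers.

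Groups, taken from the labels, were compared by the quasi-likelihood F test of edgeR 4.0.16 in R 4.3.3 (TMM factors, filterByExpr, Benjamini-Hochberg over 15454 genes, FDR below 0.1). Log2 CPM for scores and correlations used a prior count of 2. Ratios were compared by exact two-sided permutation over 252 assignments. The steps were tested on simulated data. Members and lists were chosen with earlier results of these data known. The genes named were the 10 members, each pathway gene that passed, the most correlated genes, and marker genes beside a result. Vegfc, Pgf, Nos3, Ptprb, Acvrl1, Id1, Smad4, Smad6, Epas1, Hif1a, Ppargc1a, Slc2a1, Pdk1, Adm, Pfkfb3, Col18a1, Esm1, Apln, Cdh5, Ankrd37, Bnip3, Id3, Bmp10, Adamts1 and Rcan1 were named after their values were seen. Dll4 was also named in this way. Alternatives were DESeq2 1.42.0, other size factors and filters, RSEM expected counts (rounded), both strands, the mouse number as a block, covariates, and each heart left out.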

Additional observations from a re-analysis of the deposited data

Results flagged for a closer look

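Of 42 groups of 5 hearts tested for a heart that stands apart, with Dixon's test at 95%, 2 were marked, where chance marks about 1 group in 20. Both were in sedentary heart 2 and concerned the prolyl hydroxylase genes. Egln1 was at 555.7 CPM in that heart, against 503 to 514 CPM in the other sedentary hearts. Egln3 was at 86.64 CPM there, against 62.4 to 69.0 CPM in the others. Without sedentary heart 2, the log2 fold change of Egln3 was −0.25 and that of Egln1 was −0.11. Egln1 then lost its call, as it did in 8 of the 10 fits without 1 heart, and Egln3 kept it (edgeR's quasi-likelihood test).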

How the results depend on the processing

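The count of 4 called members became 2 (Vegfa and Esam) with library totals alone or with an FDR below 0.05, and 0 with the endothelial or the atrial score as a covariate (edgeR; 5 and 2 members had an unadjusted p under 0.05, and calls over all genes went from 1084 to 328 and 81). With 1 heart left out it lay between 2 and 4, and without training heart 2 the 4 were Vegfa, Tie1, Esam and Angpt1. DESeq2, its size factors, other filters, RSEM expected counts and both strands each gave 4. The count of 7 called pathway genes became 14 with DESeq2, 1 with the endothelial score (Id3, so that all 7 lost their calls), 2 with the atrial score (Gab1 and Pik3r1) and 3 with an FDR below 0.05, and lay between 1 (without training heart 4) and 13 (without sedentary heart 1) with 1 heart left out. Calls over all genes moved too, from 1084 to 1473 with DESeq2 and to 505 with an FDR below 0.05. They were 512 without training heart 4 and 1490 without sedentary heart 1, the lowest and highest counts with 1 heart left out. The mouse number as a replicate block gave 4 members and 10 pathway genes; of the 7, Smad5, Egln1 and Pdgfb lost their calls there, and Bmp10, Epas1, Ppargc1a, Ankrd37, Adamts1 and Rcan1 gained one. The numbers were not taken as pairs, since residuals of same-numbered hearts correlated between −0.097 and 0.159, against −0.212 to 0.212 for other numbers. The cause of these moves was not tested. Angpt2, which was not called, changed sign with library totals alone (0.003), without training heart 1 (0.012), without training heart 2 (0.028), with a range of −0.135 to 0.028 over all hearts left out, and with the endothelial (0.126) or atrial score (0.058), and Tek with the endothelial score (−0.031). The ratio of Tek to Tie1 lost its exact p under 0.05 without training heart 2, 4 or 5, with log2 differences between 0.171 and 0.261 over all hearts left out. Settings for the ratios, Fabp4 and Bmal1 were chosen after seeing the data. Library totals alone moved the median of all genes to 0.053 and turned all calls from 425 higher and 659 lower to 1029 and 339.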

Other observations

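Markers of other vessel segments were listed beside the general endothelial markers. Of 5 tested vein and endocardium markers, 5 had a log2 fold change above 0, with a median of 0.24, and none passed an FDR below 0.1 in edgeR, where 4 had an unadjusted p under 0.05. Their summed level was between 327 and 401 CPM in training hearts and between 250 and 344 CPM in sedentary hearts. Vwf, the endothelial clotting factor carrier, was at 163 ± 14.9 and 137 ± 24.6 CPM (SD, n = 5 each), and Npr3, a natriuretic peptide receptor of endocardium, at 70.2 ± 8.67 and 52.3 ± 13.8 CPM. Of 6 artery markers, 4 were above 0 and 1 passed as higher, the elastic fiber gene Fbln5. The 5 lymphatic markers had a median of 0.052, and none passed. Of 8 mural cell markers, 4 lay above 0 in log2 fold change and 4 below, with a median of −0.003. Among them Tagln was higher and the pericyte gene Rgs5 lower, at 486 ± 30.9 against 552 ± 33.5 CPM. The other 6 did not pass, with Pdgfrb at −0.03, Kcnj8 at −0.09, Abcc9 at 0.03 and Notch3 at 0.03 among them. Whether these lists differ from the endothelial list was not tested.

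The transcript length that RSEM assigns to a gene, an average over its transcripts weighted by their estimated share, was 2027 ± 77.1 bases for Vegfa in training hearts and 1906 ± 51.4 bases in sedentary hearts (SD, n = 5 each). The ranges overlapped, from 1897 to 2103 and from 1854 to 1992 bases. Among the other members the widest gap between the group means, counted in bases, was in Flt1, at 6719 against 6670 bases. The gap in Eng, whose transcripts are shorter, was close to it, at 3026 against 2981 bases. In both genes the ranges of the groups overlapped.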
